A study of Mus musculus with 8 samples.

Results

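The genes of 10 myeloid C-type lectin receptors were examined in tumor-associated macrophages (TAMs), out of 21051 genes listed in the deposited tables. They were chosen by gene symbol as receptors of macrophages, monocytes and dendritic cells that read glycans, glycolipids or products of dead cells: Clec7a, Clec4d, Clec4e, Clec4n, Clec10a, Mgl2, Clec12a, Clec4a1, Clec4a2 and Clec4a3. RNA was sequenced from CD45+F4/80+ cells sorted by FACS from subcutaneous B16 melanomas on day 14 after injection, with 1 library from each of 4 WT mice (TAM-WT) and 4 Colec11-/- mice (TAM-KO). B16 is a pigmented mouse melanoma cell line. All mice were of the C57BL/6 strain, the Colec11-/- mice had been back-crossed to it, and the study's methods give WT littermates as controls and male mice of 8 to 10 weeks as the default. Colec11 encodes collectin-11, a soluble lectin, and it was deleted in the mice, in macrophages and other host cells alike, but not in the injected B16 cells. The comparison asked how these receptors were expressed in TAMs with and without it.

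C-type lectin receptors carry an extracellular lectin fold that in many of them binds sugars with the help of calcium. Those that activate cells do so through an immunoreceptor tyrosine-based activation motif (ITAM), either a single YxxL motif in the receptor's own tail, as in Dectin-1, or the full motif of the adaptor Fc receptor gamma chain, and both lead through the kinase Syk to the adaptor Card9 and to NF-kB. Others carry an inhibitory motif (ITIM) in the tail that recruits phosphatases. The galactose-type lectins Clec10a (MGL1) and Mgl2 (MGL2) bind terminal galactose and N-acetylgalactosamine, are used as markers of alternatively activated macrophages, and occur on dendritic cells too.

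The letters that set these receptors apart can be read in their coding sequences, which were taken from the GENCODE M21 transcripts (GRCm38) and are printed 5′ to 3′ around the codons in capitals. For Clec7a and for the inhibitory receptors Clec12a and Clec4a2 the capitals mark the tyrosine motif of the tail, and for the others the codons of the sugar-binding site, Glu-Pro-Asn (EPN) of mannose-type and Gln-Pro-Asp (QPD) of galactose-type lectins.
Clec7a YxxL: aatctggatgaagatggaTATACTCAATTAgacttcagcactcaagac
Clec12a ITIM: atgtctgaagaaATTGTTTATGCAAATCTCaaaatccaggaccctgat
Clec4a2 ITIM: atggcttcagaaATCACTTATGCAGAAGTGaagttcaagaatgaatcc
Clec4n EPN: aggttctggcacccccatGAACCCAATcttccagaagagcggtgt
Clec4e EPN: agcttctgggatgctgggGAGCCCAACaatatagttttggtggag
Clec10a QPD: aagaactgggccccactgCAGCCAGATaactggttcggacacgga
Mgl2 QPD: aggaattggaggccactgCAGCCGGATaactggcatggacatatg
The YxxL motif starts at codon 15 of Clec7a, and both ITIMs start at codon 5. Of 21469 coding sequences, 1 per gene, 6.31% held a YxxL motif and 4.0% an ITIM starting in the first 30 codons, where an ITIM was searched as Ile, Val, Leu or Ser, any residue, Tyr, any 2 residues, and Ile, Leu or Val. Past codon 100, 3.12% of them held EPN and 4.1% QPD. A second YxxL motif, at codon 3, was found in Clec10a, and the ITIM of Clec12a also holds a YxxL. The galactose-binding pair was closely related, with 90.4% identical bases over the 913 aligned bases of Clec10a and Mgl2, whereas the closest pair of the Clec4a genes, Clec4a2 and Clec4a3, shared 76.8%.

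In RefSeq's annotation of GRCm38.p6, the receptor genes lie in 3 stretches. Clec4a1, Clec4a3, Clec4a2, Clec4n, Clec4d and Clec4e follow each other in this order over 368 kb at chr6:122921848-123289871. Clec12a (chr6:129349783-129365303) and Clec7a (chr6:129461591-129472785) span 123 kb, and Mgl2 (chr11:70130125-70137542) and Clec10a (chr11:70166623-70170836) span 40.7 kb.

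The depth was even, at 16225362 to 17280267 reads on genes in 7 libraries; the table of the eighth, TAM-KO replicate 1, lacks an unbroken run of 5311 genes. Clec4d and Clec10a fall in that run: their FPKM in TAM-KO replicate 1 was taken from the deposited table of the whole series, which lists them, and their test was made on 4 TAM-WT and 3 TAM-KO libraries. Colec11 itself was nearly absent from these cells in both groups, with 0 to 4 counts in the TAM-WT libraries and 1 in every TAM-KO library, so it cannot serve as a check of genotype. The 10 macrophage markers examined were detected in every complete library. They summed to between 14700 and 17141 FPKM in TAM-WT and to 12944, 12096 and 14845 FPKM in TAM-KO replicates 2, 3 and 4, ranges that overlap. RNAs of other cells were detected too. The 7 melanoma cell markers summed to between 1958 and 4382 FPKM in TAM-WT and between 3817 and 5057 FPKM in TAM-KO replicates 2 to 4. The 8 T cell markers summed to between 4.02 and 16.8 and between 16.8 and 43.0 FPKM. FPKM is the number of fragments per kilobase of gene, scaled to the mapped reads of the library, so levels of different genes can be compared in it. In sorted cells in bulk, fewer cells that express a gene and less of its RNA per cell cannot be told apart.

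All 10 receptors were expressed well above the counting limit, with 146 to 6163 counts per library. In TAM-WT, Clec4n was the most abundant, at a mean of 296 FPKM, and its 4 libraries did not overlap with those of the next gene, Clec4d, at 162 FPKM. From there down to Mgl2, at 32.2 FPKM, each gene overlapped with its neighbour in the order. In TAM-KO the order differed: Clec4a1 led with 178 FPKM, followed by Clec4n with 166, and Mgl2 was again the lowest with 12.1 FPKM. Clec4a3 and Clec7a, at 105 and 54.4 FPKM, and Clec7a and Clec10a, at 54.4 and 31.0 FPKM, were the neighbours that did not overlap in TAM-KO.

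**Figure D1:**
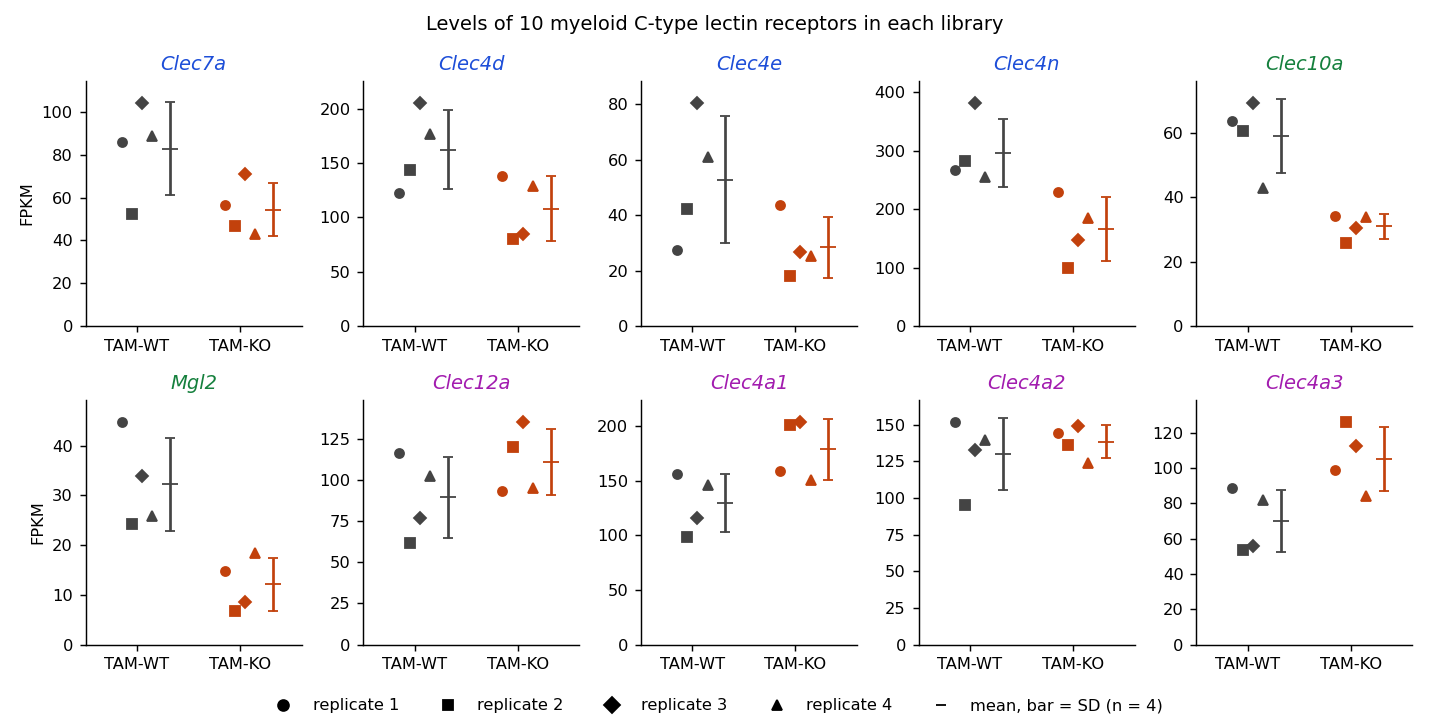
FPKM (vertical axes, from 0) of each receptor gene in the 4 TAM-WT (grey) and 4 TAM-KO (orange) libraries, with the symbol giving the replicate number and the bar the mean ± SD (n = 4). Clec4n, Clec10a and Mgl2 do not overlap between the groups. Clec7a, Clec4d and Clec4e overlap, with lower means in TAM-KO, and Clec12a and the 3 Clec4a genes overlap and lie as high or higher in TAM-KO.

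Differences are given as log2FC, the log2 fold change of TAM-KO against TAM-WT fitted by edgeR. Compared with TAM-WT, 3 of the 10 receptors were lower in TAM-KO at an adjusted p of at most 0.05 and none was higher: Clec4n, Clec10a and Mgl2. The test was edgeR's quasi-likelihood test, adjusted by Benjamini-Hochberg over 12412 genes; of these, 9.81% passed, 5.24% being lower and 4.58% higher. Lower genes made up 53.4% of these calls, and 35.6% of the calls with scaling to total counts. Clec10a and Mgl2 also fell at least 2-fold, a change that 1.12% of the tested genes showed in this direction. The same 3 genes were the only receptors whose FPKM ranges did not overlap between the groups, and all were lower in TAM-KO; of all genes tested, 5.41% did not overlap and were lower and 13.5% did not overlap and were higher. At an unadjusted p under 0.05, 8 of the 10 receptors passed, 6 lower and 2 higher, against 15.7% and 14.9% of all genes. The count of 3 rested on few libraries: it was 0 when either TAM-KO replicate 2 or 3 was left out, 1 (Clec10a) when TAM-WT replicate 3 was, 2 for TAM-WT replicate 4 and 5 for TAM-WT replicate 2, while 0.617%, 0.617%, 1.21%, 3.34% and 22.2% of all genes passed in these fits.

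**Figure D2:**
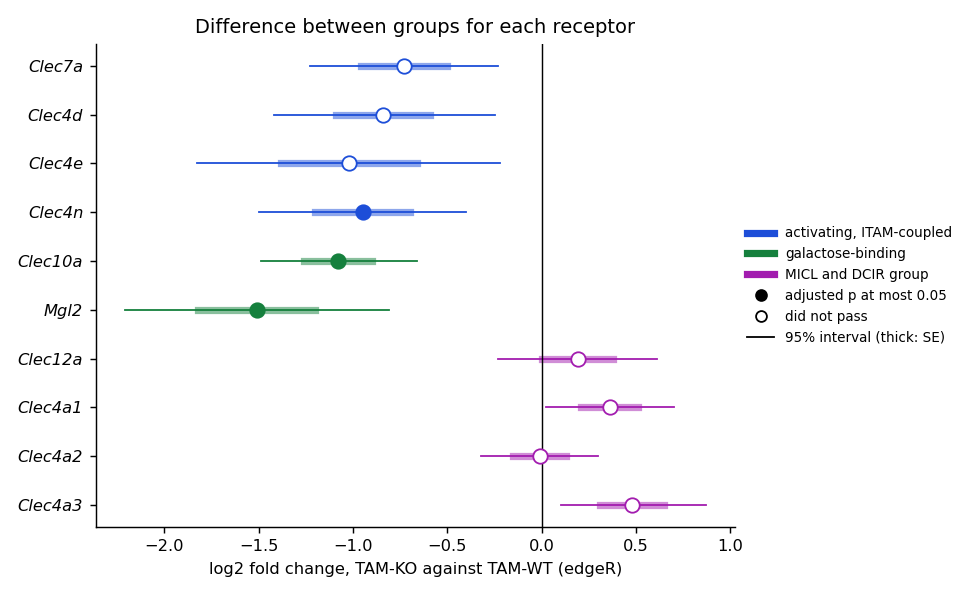
Log2FC of TAM-KO against TAM-WT (horizontal axis) for each receptor, with thick bars for the standard error and thin bars for the 95% interval. Filled points passed an adjusted p of at most 0.05. The 6 activating and galactose-binding receptors lie between -1.51 and -0.73, and the other 4 between -0.01 and 0.48.

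Both galactose-binding lectins passed as lower. Clec10a (NCBI gene 17312) was at 63.6, 60.5, 69.2 and 42.8 FPKM in TAM-WT replicates 1 to 4 and at 34.1, 25.7, 30.5 and 33.8 FPKM in TAM-KO replicates 1 to 4. Every TAM-KO library lay below every TAM-WT library, and TAM-KO libraries varied little, with a coefficient of variation of 12.6%. The means were 59.0 ± 11.4 and 31.0 ± 3.91 FPKM (SD, n = 4 each), with a log2FC of -1.08 (SE 0.18; edgeR adjusted p = 0.0194; 3 TAM-KO libraries tested). Its log2FC stayed between -1.20 and -0.94 when each library was left out in turn, and it passed in 6 of the 8 fits, failing without TAM-KO replicate 2 and without TAM-KO replicate 3 (edgeR adjusted p = 0.0829 and 0.0796).

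Mgl2 (NCBI gene 216864) was at 44.8, 24.3, 33.9 and 25.9 FPKM in TAM-WT and at 14.8, 6.83, 8.49 and 18.3 FPKM in TAM-KO. The groups did not overlap, although TAM-WT replicate 2 and TAM-KO replicate 4 came close to each other. The means were 32.2 ± 9.36 and 12.1 ± 5.38 FPKM (SD, n = 4 each), and the log2FC, -1.51 with a standard error of 0.31, was the largest among the 10 receptors (edgeR adjusted p = 0.0253). With single libraries left out it passed 5 times in 8, the exceptions being TAM-WT replicate 3, TAM-KO replicate 2 and TAM-KO replicate 3.

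Because of their shared sequence, reads of Clec10a and Mgl2 were divided between them: their expected counts were not whole in any of the 8 libraries, whereas those of Clec7a, Clec4d, Clec4e, Clec4n and Clec12a were whole in each. The single levels of this pair are therefore uncertain to that degree. Summed over both genes, the counts had a log2FC of -1.25 (SE 0.22; edgeR adjusted p = 0.0204; 3 TAM-KO libraries tested). Clec10a exceeded Mgl2 in every library, by a ratio of 1.42 to 2.49 in TAM-WT and 1.85 to 3.76 in TAM-KO, ranges that overlap. Dendritic cells also express both lectins, and 9 of their markers summed to between 24 and 50.7 FPKM in TAM-WT and between 46.5 and 51.6 FPKM in TAM-KO replicates 2 to 4; among the 9, 1 was higher in TAM-KO, none was lower, and their part in the result was not tested.

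Among the ITAM-coupled receptors, 1 of 4 passed. Clec4n (NCBI gene 56620) encodes Dectin-2, which binds mannose-rich glycans of fungi and signals through the Fc receptor gamma chain. It was at 266, 283, 381 and 255 FPKM in TAM-WT and at 229, 99.9, 148 and 185 FPKM in TAM-KO. All TAM-KO libraries were lower than all TAM-WT libraries, with TAM-KO replicate 1 nearest to them. The means were 296 ± 57.8 and 166 ± 55.0 FPKM (SD, n = 4 each), and the log2FC was -0.95 (SE 0.25; edgeR adjusted p = 0.0431). This call was less stable than those of the galactose-binding pair, as it passed 3 times in 8 with single libraries left out, at adjusted p from 0.0285 to 0.127 in edgeR, but the log2FC stayed between -1.14 and -0.76.

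Clec4d and Clec4e encode MCL and Mincle, which form a complex and recognize glycolipids of mycobacteria; Mincle also recognizes a nuclear protein, SAP130, released by dead cells. Clec4d (NCBI gene 17474) was at 123, 144, 205 and 177 FPKM in TAM-WT and at 139, 79.9, 84.5 and 129 FPKM in TAM-KO. TAM-KO replicates 1 and 4 lay within or close to the TAM-WT range, and replicates 2 and 3 well below it. The log2FC was -0.84 (SE 0.25; edgeR adjusted p = 0.0708; 3 TAM-KO libraries tested), which did not pass.

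Clec4e (NCBI gene 56619) was at 27.4, 42.3, 80.4 and 61.1 FPKM in TAM-WT and at 43.9, 17.95, 26.7 and 25.1 FPKM in TAM-KO. It varied the most within TAM-WT, with a coefficient of variation of 43.5%, and TAM-WT replicate 1 lay as low as TAM-KO replicate 3. The means were 52.8 ± 23.0 and 28.4 ± 11 FPKM (SD, n = 4 each). Its log2FC of -1.02 was close to that of Clec10a, with a standard error of 0.36, and the gene did not pass (edgeR adjusted p = 0.0909).

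Clec7a (NCBI gene 56644) encodes Dectin-1, the receptor for beta-glucans with the YxxL motif shown above. It was at 86.2, 52.5, 104 and 88.7 FPKM in TAM-WT and at 56.5, 46.9, 70.9 and 43.2 FPKM in TAM-KO. TAM-WT replicate 2 alone lay among the TAM-KO libraries. The means were 82.9 ± 21.8 and 54.4 ± 12.4 FPKM (SD, n = 4 each), and the log2FC was -0.73 (SE 0.23; edgeR adjusted p = 0.0656). Without TAM-WT replicate 2 the log2FC was -0.91 and the gene passed (edgeR adjusted p = 0.00697). Monocytes and neutrophils express these 4 receptors as well: 8 monocyte markers summed to between 473 and 740.1 FPKM in TAM-WT and between 529.6 and 663 FPKM in TAM-KO replicates 2 to 4, with 4 markers higher and 1 lower in TAM-KO. The 9 neutrophil markers summed to between 47.2 and 74.2 and between 60.1 and 73.2 FPKM. Of the 5 of them tested, 4 had positive log2FCs and 1 passed as higher, S100a8, which was at 2.57 to 5.54 FPKM in TAM-WT and 9.13 to 73.5 FPKM in TAM-KO, highest in TAM-KO replicate 1, a library outside those sums (log2FC 2.68, edgeR adjusted p = 0.0481). In every TAM-KO library S100a9 and Csf3r exceeded all TAM-WT libraries, but neither passed (edgeR adjusted p = 0.0739 and 0.0737). S100a9 averaged 3.93 FPKM in TAM-WT and 26.3 FPKM in TAM-KO, and Csf3r 18.8 and 30.5 FPKM. Mmp8, with a log2FC of -1.22, averaged 30.4 and 15.1 FPKM (edgeR adjusted p = 0.0603). The sums therefore add markers that moved in opposite directions. Ly6g was at 0.19 FPKM or less in every library, and Ngp, a granule gene of immature neutrophils, was at 0 in the 7 libraries with a value. The part of these cells in the results was not tested.

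None of the inhibitory receptors and their relatives passed in either direction. Clec12a (NCBI gene 232413) encodes MICL, an ITIM receptor for uric acid crystals of dying cells. It was at 117, 61.6, 77.0 and 102 FPKM in TAM-WT and at 93.5, 119.7, 135 and 94.95 FPKM in TAM-KO, and the groups overlapped. The log2FC of 0.19 had a 95% interval from -0.23 to 0.61 (edgeR adjusted p = 0.526).

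Clec4a2 encodes DCIR, an ITIM receptor, and Clec4a1 and Clec4a3 are its close relatives. Clec4a2 (NCBI gene 26888) was at 152, 95.1, 133 and 139.7 FPKM in TAM-WT and at 145, 135.9, 149 and 124 FPKM in TAM-KO. TAM-WT replicate 2 was the lowest and the other 7 libraries lay close together. Its log2FC was -0.01 with a 95% interval from -0.32 to 0.30 (edgeR adjusted p = 0.971), and its sign was positive with scaling to total counts or on FPKM values.

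Clec4a1 (NCBI gene 269799) was at 156, 98.7, 116 and 146 FPKM in TAM-WT and at 158, 201, 204 and 151 FPKM in TAM-KO. Clec4a3 (NCBI gene 73149) was at 88.6, 53.9, 56.1 and 82.0 FPKM in TAM-WT and at 98.7, 126, 112 and 84.0 FPKM in TAM-KO. For both genes TAM-KO replicates 2 and 3 were the highest and TAM-WT replicate 2 the lowest of all libraries, and the groups overlapped. Their log2FCs were 0.36 with a standard error of 0.15 and 0.48 with a standard error of 0.17, and neither passed (edgeR adjusted p = 0.146 and 0.0917). Nor did the summed counts of the 3 Clec4a genes, with a log2FC of 0.27 and a standard error of 0.15 (edgeR adjusted p = 0.249).

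**Figure D3:**
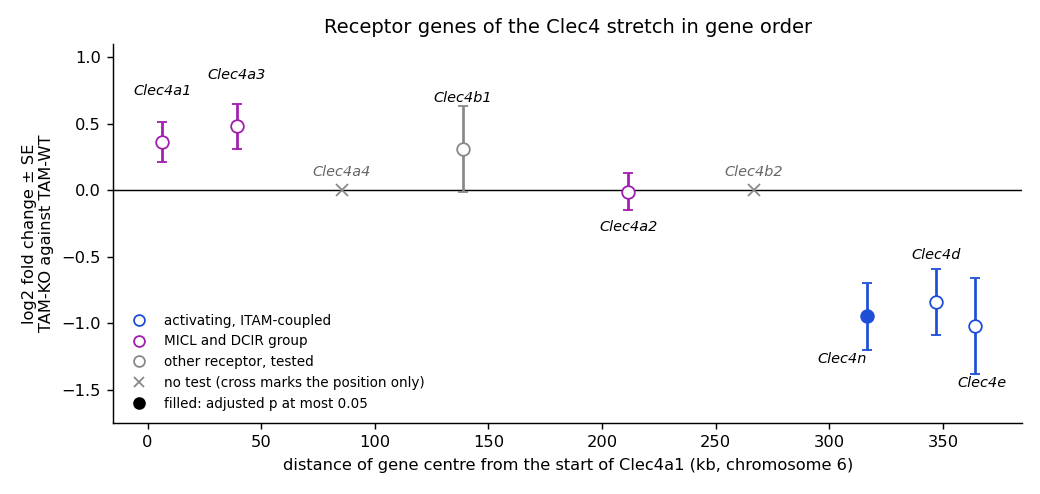
Log2 fold change ± standard error (edgeR) of the receptor genes of the Clec4 stretch on chromosome 6, against the distance of each gene's centre from the start of Clec4a1 in kb. The Clec4a genes lie at or above 0 and Clec4n, Clec4d and Clec4e, 308 kb and more from that start, between -1.02 and -0.84, of which only Clec4n (filled) passed.

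Along the Clec4 stretch the 3 genes at one end had negative log2FCs and the genes before them values near or above 0. The stretch holds 3 other coding genes, all of the same family. Clec4b1, between Clec4a3 and Clec4a2, was at 9.95 ± 3.88 FPKM in TAM-WT and 13.6 ± 5.19 FPKM in TAM-KO (SD, n = 4 each), with a log2FC of 0.31 (edgeR adjusted p = 0.548). Clec4a4 was below 1 FPKM on average in both groups and was not tested, and Clec4b2 had no value in the tables. Between Clec12a and Clec7a lie 4 coding genes, Clec12b, Clec1b, Clec9a and Clec1a, each at a mean below 0.4 FPKM in both groups. No other coding gene lies between Mgl2 and Clec10a.

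Promoters of the receptors were read from RefSeq (GRCm38.p6, 250 bases before to 50 after a transcription start) to show the sequence around a transcription start of these genes. The Mgl2 window starts at chr11:70130107 and the annotated gene at 70130125, so most of that window lies inside the gene. Entries were matched for 8 of the 10 genes; Clec4n and Clec10a had none. Mgl2, the receptor with the largest difference, and Clec4d and Clec4e, the neighbours of Clec4n, are printed on their own strand with motif matches in capitals.
Mgl2, chr11:70130107-70130406, plus strand: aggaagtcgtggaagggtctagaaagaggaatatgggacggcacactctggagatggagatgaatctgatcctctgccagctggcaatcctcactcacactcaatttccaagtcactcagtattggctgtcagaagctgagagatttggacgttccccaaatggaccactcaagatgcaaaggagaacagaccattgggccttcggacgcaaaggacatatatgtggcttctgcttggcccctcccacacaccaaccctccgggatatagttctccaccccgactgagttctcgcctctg
Clec4d, chr6:123261857-123262156, plus strand: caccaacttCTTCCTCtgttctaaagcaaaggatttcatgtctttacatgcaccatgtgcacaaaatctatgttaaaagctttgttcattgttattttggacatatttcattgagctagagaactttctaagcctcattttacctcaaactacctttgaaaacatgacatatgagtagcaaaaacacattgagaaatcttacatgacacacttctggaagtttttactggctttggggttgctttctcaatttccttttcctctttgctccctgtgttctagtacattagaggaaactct
Clec4e, chr6:123289822-123290121, minus strand: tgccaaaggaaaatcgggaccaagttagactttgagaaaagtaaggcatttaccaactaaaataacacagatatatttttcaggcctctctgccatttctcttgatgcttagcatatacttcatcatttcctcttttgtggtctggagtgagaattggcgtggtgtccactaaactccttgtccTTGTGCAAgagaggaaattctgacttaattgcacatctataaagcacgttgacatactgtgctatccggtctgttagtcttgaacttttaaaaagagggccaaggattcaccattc
On both strands, 3 motifs were searched: GAGGAAG for PU.1, TGANTCA for AP-1 and TTGCNNAA for C/EBP, factors of myeloid cells. Of 32851 promoters, 13.6%, 7.8% and 10.8% held them. Clec4d held 1 PU.1 match, Clec4e 1 C/EBP match, and Mgl2 none of the 3. Among the promoters not printed, Clec12a held 1 match of each motif, Clec4a1 1 PU.1 match and Clec4a2 1 AP-1 match. Clec4a3 and Clec7a held none.

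Levels of 2 sets of Clec4 genes were also summed within single libraries. The sums restate the values fitted above, where the summed counts of the 3 Clec4a genes did not pass (log2FC 0.27, edgeR adjusted p = 0.249). Summed over Clec4n, Clec4d and Clec4e, levels were 417, 469, 667 and 493 FPKM in TAM-WT and 412, 198, 259 and 339 FPKM in TAM-KO. Over Clec4a1, Clec4a2 and Clec4a3 they were 397, 248, 305 and 368 FPKM in TAM-WT and 402, 463, 466 and 359 FPKM in TAM-KO. TAM-KO replicates 2 and 3 combined the lowest levels of the former with the highest of the latter, while TAM-KO replicate 1 lay beside TAM-WT replicate 1 in both. TAM-KO replicate 4 lay below every TAM-WT library in the former and inside the TAM-WT range in the latter. The ratio of Clec4n to Clec4a1, which is free of scaling between libraries, was 1.70, 2.86, 3.28 and 1.74 in TAM-WT and 1.45, 0.497, 0.726 and 1.23 in TAM-KO. Of the complete libraries, TAM-KO replicates 2 and 3 had the most melanoma cell marker RNA, at 5057 and 4742 FPKM. They also had the most T cell marker RNA, at 43.0 and 35.2 FPKM. TAM-KO replicate 4 was at 3817 and 16.8 FPKM. TAM-WT replicate 2, with receptor sums of 469 and 248 FPKM, came next in melanoma cell markers, at 4382 FPKM, and was at 4.02 FPKM in T cell markers. TAM-KO replicate 1 was not summed for these markers. The part of these cells in the receptor levels was not tested.

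**Figure D4:**
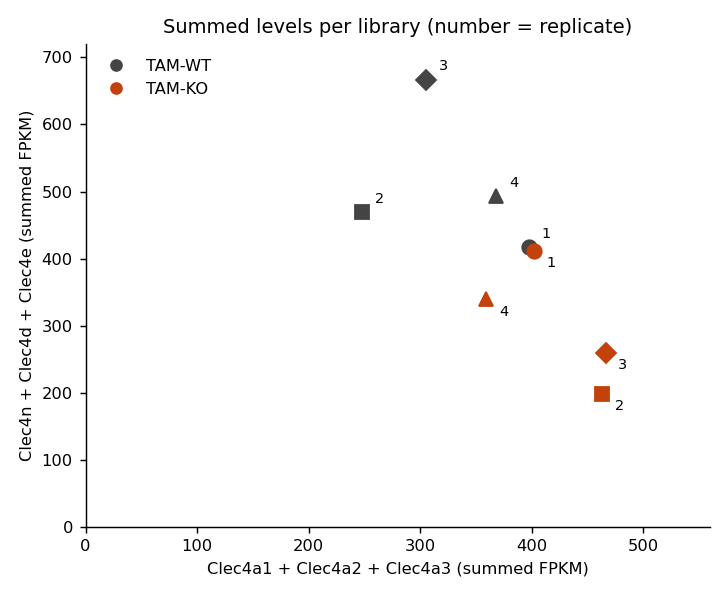
Summed FPKM of Clec4n, Clec4d and Clec4e (vertical axis) against that of Clec4a1, Clec4a2 and Clec4a3 (horizontal axis), 1 point per library, grey for TAM-WT and orange for TAM-KO, with the replicate number beside it. TAM-KO replicates 2 and 3 lie at the lower right, and the replicates 1 of both groups lie next to each other.

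Of 15 genes of the ITAM pathway tested, 1 was higher and 1 lower in TAM-KO, beside 4.58% and 5.24% of all genes, with a median log2FC of -0.06 beside 0.00 for all genes tested. With scaling to total counts the median of the 15 was 0.03 and on FPKM values 0.06, with 2 genes higher and 1 lower in each case. The adaptors that carry the motif were the most abundant: Fcer1g, the Fc receptor gamma chain, averaged 1973 ± 218 FPKM in TAM-WT and 1910 ± 74.4 FPKM in TAM-KO (SD, n = 4 and 3), and Tyrobp, which encodes DAP12, averaged 937 ± 91.6 and 879 ± 39.1 FPKM (SD, n = 4 each). Neither passed (edgeR adjusted p = 0.453 and 0.187). Syk and Card9, named for their role, had log2FCs of -0.19 and -0.25 and did not pass (edgeR adjusted p = 0.364 and 0.079).

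Malt1, the protease that acts with Card9 and Bcl10, fell from a mean of 17.8 ± 4.58 FPKM to one of 8.55 ± 1.12 FPKM (SD, n = 4 each) with a log2FC of -1.17 (SE 0.20; edgeR adjusted p = 0.0168), and passed 6 times in 8 with single libraries left out. Src, a kinase upstream of Syk, rose from a mean of 8.14 ± 2.56 FPKM to one of 13.4 ± 0.778 FPKM (SD, n = 4 each), with a log2FC of 0.61 (edgeR adjusted p = 0.0403), and passed 1 time in 8. None of the 3 phosphatases recruited by ITIMs passed. Ptpn6, which encodes SHP-1, averaged 112 ± 19.9 FPKM in TAM-WT and 159 ± 15.5 FPKM in TAM-KO (SD, n = 4 and 3), and Inpp5d, which encodes SHIP1, averaged 65.0 ± 8.18 and 70.8 ± 6.73 FPKM (edgeR adjusted p = 0.0867 and 0.96).

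Genes that these pathways are known to induce had negative fold changes. This held for all 11 of the 11 targets tested, with a median of -1.34, whereas 6168 of the 12412 genes tested had a negative log2FC. The list was chosen with earlier results of these data known, so this count is not a test of the pathways. The paper itself reports Il1b, Il10, Cxcl1 and Cxcl2 as lower in these Colec11-/- TAMs. Il6, Il23a and Il12b were near the floor, at 0.689, 0.7 and 0.737 FPKM over the libraries with values. As lower, 3 of the 11 passed, beside 5.24% of all genes: Egr2, Egr3 and Il12b. Egr2, a transcription factor that Dectin-1 signalling induces, was at 43.9 ± 15.7 FPKM in TAM-WT and 18 ± 6.80 FPKM in TAM-KO (SD, n = 4 each), with a log2FC of -1.73 (SE 0.31; edgeR adjusted p = 0.022; 3 TAM-KO libraries tested). Its relative Egr3 and Il12b, the p40 subunit of interleukin-12, were low, below 2 FPKM on average, with log2FCs of -1.26 and -1.77 (edgeR adjusted p = 0.0357 and 0.0329; 3 TAM-KO libraries tested). The most abundant targets, the neutrophil chemoattractants Cxcl1 and Cxcl2, did not pass (edgeR adjusted p = 0.0647 and 0.188).

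Among 30 other C-type lectin receptors, 14 were tested, of which 4 were lower and 1 was higher in TAM-KO, beside 5.24% and 4.58% of all genes, with a median log2FC of -0.02 that was positive with scaling to total counts or on FPKM values. Colec12, a scavenger receptor with a collagen stem, fell from a mean of 3.82 ± 0.643 FPKM to one of 1.35 ± 0.401 FPKM (SD, n = 4 each) with a log2FC of -1.58 (SE 0.26; edgeR adjusted p = 0.0184; 3 TAM-KO libraries tested). The mannose receptor Mrc1, the most abundant of these receptors, had a log2FC of -1.13 (edgeR adjusted p = 0.0219), close to that of Clec10a. Olr1, the receptor for oxidized low-density lipoprotein next to Clec7a's cluster, had a log2FC of -2.77 from a TAM-WT mean of 1.59 ± 0.756 FPKM (SD, n = 4) (edgeR adjusted p = 0.0255), and Cd93 one of -0.45 (edgeR adjusted p = 0.0493). Cd209c rose from a mean of 1.75 ± 0.274 FPKM to one of 3.47 ± 0.645 FPKM (SD, n = 4 each), with a log2FC of 0.98 (edgeR adjusted p = 0.0255). These 5 genes were tested on 3 TAM-KO libraries.

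Clec10a and Mgl2 are induced in macrophages by interleukin-4, so 15 other genes of this response were examined, of which 14 were tested. None was higher and 3 were lower, beside 4.58% and 5.24% of all genes, and 11 had negative log2FCs, with a median of -0.32. The other 3, named after their values were seen, were Pdcd1lg2, Chil3 and Tgm2, with log2FCs of 0.88, 0.82 and 0.57 that did not pass (edgeR adjusted p = 0.198, 0.144 and 0.14), and the FPKM of Chil3 was higher in every TAM-KO library than in any TAM-WT library. Besides Mrc1, the lower genes were Retnla, from 4.20 ± 1.6 to 1.69 ± 0.537 FPKM (SD, n = 4 each; log2FC -1.40, edgeR adjusted p = 0.0452), and Fn1, from 225 ± 91.8 to 89.0 ± 29.6 FPKM (SD, n = 4 each; log2FC -1.63, edgeR adjusted p = 0.0338; 3 TAM-KO libraries tested). Arg1, the gene of the response with the highest mean FPKM after Mrc1, did not pass (log2FC -1.01, edgeR adjusted p = 0.167).

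Of the protein ligands of these receptors, none of 4 passed. Vim, which encodes vimentin, a ligand of Dectin-1, was at 2644 ± 347 and 2284 ± 214 FPKM (SD, n = 4 each), and Anxa1, which encodes another of its ligands, annexin A1, at 259 ± 57.5 and 179 ± 40.4 FPKM (edgeR adjusted p = 0.144 and 0.0963). Of 6 soluble collectins, 2 had values in the tables and none had enough counts to be tested. Over all these lists, 12 genes passed with all libraries, 0 when TAM-KO replicate 2 or 3 was left out, and 3 when TAM-WT replicate 3 was.

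**Figure D5:**
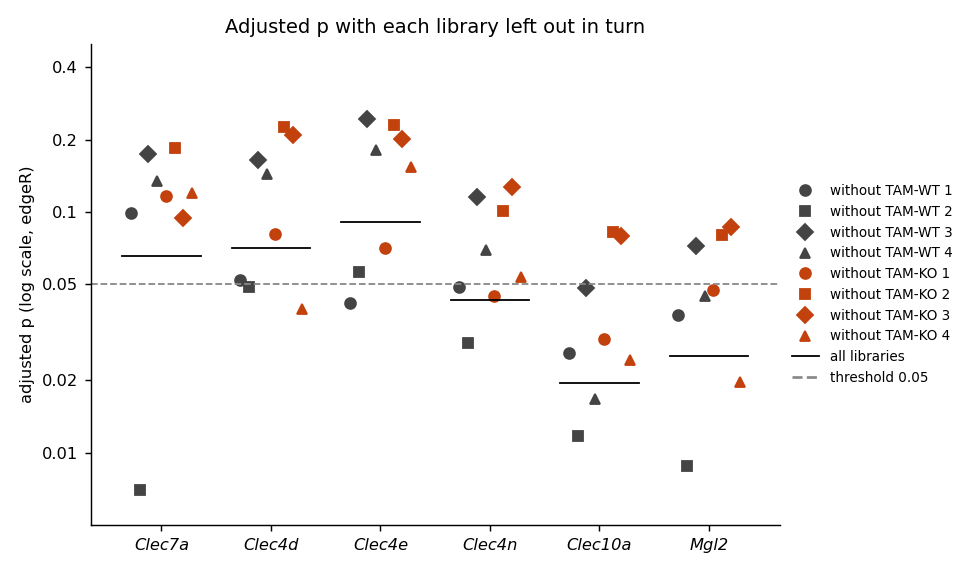
Adjusted p from edgeR (log scale) of the 6 activating and galactose-binding receptors with each library left out in turn; color gives the group and symbol the replicate of the library left out, the black line the value with all libraries and the dashed line the threshold of 0.05. Clec10a passed in 6 and Mgl2 in 5 of the 8 fits, Clec4n in 3, Clec4d in 2, and Clec7a and Clec4e in 1 each.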

How the data were processed

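RNA of CD45+F4/80+ cells was sequenced on the BGISEQ-500 platform from 4 WT and 4 Colec11-/- mice, grouped by the genotype in the deposited labels. Per the submitters' processing notes, HISAT2 2.0.4, Bowtie2 2.2.5 and RSEM 1.2.12 were used on GRCm38.p6. The expected counts were deposited by the authors as RSEM estimated them, per gene and without normalization, and reads of genes with shared sequence are divided between them in this estimate. The authors deposited FPKM values as well, relative to gene length and mapped reads of each library. TPM values that the authors deposited enter no result. The authors' table of the comparison, which also holds their log2 ratios, p-values and q-values, was used only for the FPKM and expected counts of TAM-KO replicate 1: its table lacks 4214 of 16786 genes with values in the other 7 libraries, of which 1188 were listed there as genes that differ. They enter FPKM means, but not the test. In TAM-KO replicate 1, 629 values displaced from other genes and 1 mixed line were not used.

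After rounding, edgeR 4.0.16 under R 4.3.3 was applied to the expected counts (TMM, filterByExpr, glmQLFit, glmQLFTest), on 8 libraries for 9396 genes and on 7 for 3016, with Benjamini-Hochberg adjustment over both sets together. A gene passed at an adjusted p of at most 0.05; standard errors are those implied by the quasi-likelihood F statistic. Pairs of replicates differed by more than sampling noise (chi-square per degree of freedom from 6.16 to 30.0). The receptors and the gene lists were chosen with earlier results of these data known. Named by rule were all 10 receptors and, from each other list, the genes that passed and the 2 tested genes with the highest mean FPKM. Markers of other cells are given as counts and sums, except for single neutrophil markers. Outside the rule, neighbours of the receptor genes were named for their position and Syk and Card9 for their role. Il6 and Il23a were named for their low level, and Pdcd1lg2, Chil3 and Tgm2 after their values were seen. Alternatives were other scalings, DESeq2 1.42.0, limma 3.58.1 on log2(FPKM + 1) and log2(FPKM + 0.1), other filters, a block for the replicate number, filling TAM-KO replicate 1, summing paralogs, a 2-fold threshold, and leaving out each library. Coding sequences were aligned with Biopython.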

Additional observations from a re-analysis of the deposited data

Results flagged for a closer look

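Single libraries were set against the rest of their group for the 10 receptors and the genes of other lists named by rule. This covered 57 groups of 4 values, where chance gives about 1 flag in 20 groups. One value stood apart: Fn1, which encodes fibronectin, was at 361 FPKM in TAM-WT replicate 3, with 191 FPKM in the next library of that group. No receptor had a library that stood apart in this way.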

How the results depend on the processing

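Clec4n, Clec10a and Mgl2 were the receptors that passed under DESeq2 size factors, scaling to total counts, limma on either FPKM scale, no filter on low counts, at least 10 counts in every library, and filling TAM-KO replicate 1. DESeq2's Wald test called 6 receptors, with Clec7a, Clec4d and the higher Clec4a3 added, 2253 genes in all and 19 genes of the other lists, against 3, 1218 and 12. Requiring a 2-fold change as well left 314 genes. Leaving out 1 library gave 0 to 5 receptors, 77 to 2755 genes and 0 to 21 list genes. Clec4a2 had log2 fold changes of 0.08 with total counts, 0.11 with limma on either FPKM scale and 0.01 with the replicate block, and from -0.15 to 0.05 with a library left out. Over all alternatives, 147 of 175 receptor values kept direction and side of the threshold, 11 lost a call and 9 gained one. Total counts moved the median of all genes by 0.09 and limma by up to 0.10, and the share of lower genes among calls from 53.4% to 35.6% and to 30.8%. The labels do not say whether replicate numbers pair the mice. Same-number correlations of deviations from the group means were -0.325, 0.02, -0.234 and 0.261, and not every library correlated best with its own number. Such correlations gave no sign of pairing but cannot exclude it. With the replicate block 4 receptors passed (Clec7a, Clec4d, Clec10a and Mgl2), with 1080 genes and 12 list genes. Every receptor had at least 146 counts in each library, whereas genes filtered out for low counts, among them the soluble collectins, could not be compared at this depth.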
